A study of Mus musculus with 10 samples.

Results

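Chemokine ligands are the small secreted proteins that direct the movement of leukocytes, and 37 of their genes were followed here in mammary tumours of mice. Members were chosen by name, each as the gene whose symbol in the deposited table equals that of a listed chemokine, and they were grouped by the cells they mainly attract. Of the 37, 36 are among the 26063 genes of the table, and the expression of Ccl19 was not analysed here. Bulk RNA was sequenced from mammary tumours of 10 female FVB/N mice, 5 with the genotype 16IC/WT (16IC here) and 5 with the genotype EIC/WT (EIC here). Every mouse in both groups received doxycycline at 2 mg/ml, and tumours were collected at end point and flash frozen. What the names 16IC and EIC stand for, which promoter drives either allele and how old the mice were is not stated in the labels. The series title refers to a variant of HER2, to ENPP1 and to an immune cold tumour microenvironment. The question put to the ligands is whether the genotypes differ in the signals that recruit immune cells.

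Chemokines bind G protein-coupled receptors on leukocytes, and a gradient of ligand steers the cell towards its source. Inflammatory chemokines are induced by NF-kB and interferon signalling and recruit neutrophils, monocytes and effector lymphocytes. Homeostatic chemokines are made by stroma and epithelium without such a stimulus and position cells within a tissue. In mammary tumours both the cancer cells and the macrophages, fibroblasts and vessels around them make chemokines.

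Levels are counts relative to library size (CPM, scaled by TMM), given for tumours 1 to 5 of a group in that order, with means ± SD over 5 tumours. The numbers only tell tumours apart. Differences are log2 of 16IC over EIC with their standard error (SE), from edgeR's quasi-likelihood test with Benjamini-Hochberg adjustment over all genes tested. Libraries held 14813940 to 16947400 counts. The luminal epithelium markers Epcam, Krt8, Krt18, Cdh1 and Krt19 summed to 3174 to 4933 CPM in 16IC and 3466 to 5470.5 CPM in EIC. Krt19, a luminal keratin, was uneven, at 0 to 3.53 CPM in 16IC 1, 16IC 3 and 16IC 4 and 2.79 CPM in EIC 2, and at 233 CPM or more in the other tumours.

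No chemokine ligand was separated between the genotypes by edgeR. Of the 36 members in the table, 21 had enough counts for the test and 15 did not. None of the 21 had an adjusted p under 0.05, while 2, Cxcl5 and Cxcl14, had an unadjusted p under 0.05. Over all 14915 genes tested, 0% were called at the adjusted threshold and 13.1% had an unadjusted p under 0.05. Limma-voom with quality weights also called 0 members, and it called 0 of all genes, so its count says nothing particular to the ligands. DESeq2 called 1 member, Xcl1, as higher in 16IC, and 2.11% of the 16838 genes to which it gave an adjusted p. No tested member had groups without overlap, against 2.58% of all genes tested.

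The estimates leaned to lower levels in 16IC. The log2 difference was below 0 for 17 of the 21 tested members, against 52.3% of all genes tested. Its median was -0.42 over the members and -0.02 over all genes tested. The 4 positive estimates were those of Ccl28, Cxcl12, Ccl5 and Ccl27a. The members of 1 tumour vary together, so the 17 are not independent of each other, and the median lay between -0.69 without EIC 3 and -0.28 without EIC 4. It was -0.82 with limma-voom.

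**Figure D1:**
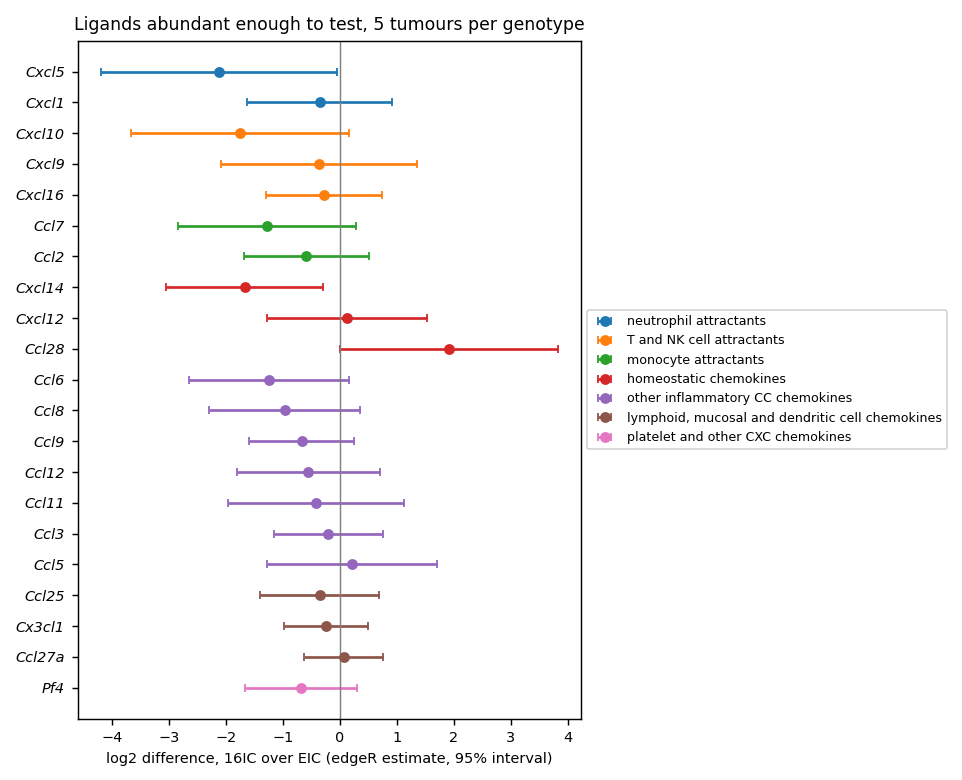
Log2 difference of 16IC over EIC (horizontal axis) for the 21 chemokine ligands abundant enough to test, with 95% intervals from edgeR, coloured by target-cell group. Estimates run from -2.13 for Cxcl5 to 1.91 for Ccl28, and 19 of the 21 intervals cross 0.

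The neutrophil attractants Cxcl1, Cxcl2, Cxcl3 and Cxcl5 signal through Cxcr2 in the mouse. Cxcl1 and Cxcl5 could be tested and neither passed. Their genes lie together on chromosome 5, and the promoters of Cxcl1, Cxcl2 and Cxcl3 are shown because they share the same run of NF-kB motif letters just before the start. The sequences are those of RefSeq on GRCm38.p6, plus strand, with the match in capitals: chr5:90890995-90891294 for Cxcl1, and the stretches chr5:90903762-90903851 for Cxcl2 and chr5:90785988-90786077 for Cxcl3.
Cxcl1: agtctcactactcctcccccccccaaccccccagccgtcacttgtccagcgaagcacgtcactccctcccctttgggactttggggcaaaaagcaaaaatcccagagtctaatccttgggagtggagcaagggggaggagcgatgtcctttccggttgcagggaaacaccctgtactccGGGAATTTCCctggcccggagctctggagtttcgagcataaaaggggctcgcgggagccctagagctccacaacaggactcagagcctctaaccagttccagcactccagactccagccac
Cxcl2: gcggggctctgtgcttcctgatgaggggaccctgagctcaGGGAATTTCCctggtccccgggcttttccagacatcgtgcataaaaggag
Cxcl3: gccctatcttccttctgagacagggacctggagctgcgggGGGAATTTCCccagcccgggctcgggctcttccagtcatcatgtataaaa
In each of these promoters the match reads GGGAATTTCC, and it begins 71, 97 and 73 bases before the annotated start of Cxcl1, Cxcl2 and Cxcl3. The letters searched on both strands (GGGA, any base, TT, any base, CC) occurred in 1.20% of 32851 RefSeq promoters (250 bases before to 50 after the start). They occurred in 4 of the 27 members found among those promoters, the other being Cxcl10. A match describes the sequence and is not shown to be a site in use.

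Cxcl1 (chr5:90891241-90893115, plus strand), the main neutrophil attractant of the mouse together with Cxcl2, had 2.16, 12.2, 2.74, 2.47 and 13.4 CPM in 16IC, against 8.11, 4.40, 8.63, 13.2 and 7.89 CPM in EIC. In 16IC it was high in tumours 2 and 5 and low in the other three, and the EIC values lay within the range of 16IC. The means were 6.60 ± 5.69 CPM in 16IC and 8.44 ± 3.14 CPM in EIC, and the log2 difference was -0.35 (SE 0.57, 95% interval from -1.62 to 0.92, adjusted p 0.801). Cxcl5 (chr5:90759360-90761624, plus strand), which epithelium and platelets can make, had 0.144, 1.72, 0.122, 0.137 and 0.704 CPM in 16IC, against 5.22, 0.297, 1.80, 4.56 and 0.783 CPM in EIC. EIC 1 and EIC 4 were the highest, and 16IC 2 stood above EIC 2 and EIC 5. The means were 0.566 ± 0.693 CPM in 16IC and 2.53 ± 2.23 CPM in EIC. The log2 difference was -2.13, with an SE of 0.94 and an interval from -4.20 to -0.06, and the adjusted p was 0.370 by edgeR (unadjusted p 0.0450) and 0.186 by DESeq2, and DESeq2 called it in 1 of the 10 fits without 1 tumour (0.0216 without 16IC 2, and 0.0669 to 0.483 in the others). Cxcl2 and Cxcl3 were too low to test. Cxcl2 ran from 0 to 0.547 CPM in 16IC and from 0.0594 to 0.839 CPM in EIC, and Cxcl3 from 0 to 0.238 CPM in 16IC and from 0 to 0.580 CPM in EIC.

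Neutrophil markers leaned the same way. Of 6 markers in the table, 4 were tested, all 4 had negative log2 differences and an unadjusted p under 0.05, and none passed edgeR's adjusted threshold. DESeq2 called Cxcr2, the receptor of these ligands, and S100a8, an alarmin subunit abundant in neutrophils, as lower in 16IC. Cxcr2 averaged 0.588 ± 0.515 CPM in 16IC and 3.20 ± 2.77 CPM in EIC, with a log2 difference of -2.44 and an adjusted p of 0.0341 by DESeq2, against 0.288 by edgeR. S100a8 averaged 2.68 ± 1.78 CPM in 16IC and 14.6 ± 13.0 CPM in EIC, with a DESeq2 log2 difference of -2.45 and an adjusted p of 0.0258, against 0.288 by edgeR. The marker list summed to 3.34 to 21.3 CPM in 16IC and 13.2 to 79.9 CPM in EIC, with EIC 1 and EIC 4 highest, as for Cxcl5. Among its markers, Mmp8 was at 0 in 16IC 1 and Retnlg in 16IC 4. Neither call held without 16IC 1, 16IC 3, 16IC 4, EIC 1 or EIC 4, where DESeq2's adjusted p was from 0.106 to 0.195 for Cxcr2 and from 0.0735 to 0.178 for S100a8, and without 16IC 2 it was 0.0554 for Cxcr2. The log2 differences in the fits without these 5 tumours were from -2.35 to -1.90 for Cxcr2 and from -2.46 to -1.93 for S100a8. In bulk tissue fewer cells of a type and less RNA per cell cannot be told apart, and the part of neutrophil number in the ligand values was not tested.

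The T and NK cell attractants did not separate the genotypes either: 3 of 4 were tested, with negative log2 differences and adjusted p-values from 0.406 to 0.851. Cxcl9, Cxcl10 and Cxcl11 are interferon-induced ligands of Cxcr3, which activated T cells and NK cells carry, and Cxcl16 is a membrane-bound ligand of Cxcr6. The promoter of Cxcl10 is shown because it was the only member promoter with both the NF-kB letters and the interferon-response letters (ISRE, which is GAAA, any pair of bases, GAAA, on both strands). It spans chr5:92348840-92349139 on GRCm38.p6 and is printed on its own minus strand, with the matches in capitals.
Cxcl10: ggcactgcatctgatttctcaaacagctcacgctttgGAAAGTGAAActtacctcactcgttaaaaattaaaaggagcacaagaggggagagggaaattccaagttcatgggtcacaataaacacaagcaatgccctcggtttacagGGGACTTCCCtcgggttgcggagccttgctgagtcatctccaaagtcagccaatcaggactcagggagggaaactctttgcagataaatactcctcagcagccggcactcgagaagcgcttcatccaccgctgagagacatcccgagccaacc
The ISRE match begins 213 bases and the NF-kB match, GGGACTTCCC, 103 bases before the start. The ISRE letters occurred in 3.44% of all promoters and in 3 members, Cxcl10, Cxcl14 and Ccl19, the last known here by its promoter alone.

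Cxcl9 (chr5:92321347-92328079, minus strand) had 10.4, 1.67, 1.16, 1.78 and 2.46 CPM in 16IC, against 6.66, 0.713, 1.32, 7.88 and 5.90 CPM in EIC. The highest value came from 16IC 1, and otherwise EIC 1, EIC 4 and EIC 5 were high. The log2 difference was -0.37 (SE 0.78, interval from -2.09 to 1.35, adjusted p 0.851), on means of 3.49 ± 3.88 CPM in 16IC and 4.49 ± 3.26 CPM in EIC. It was -1.34 without 16IC 1 and -0.07 without EIC 4. Cxcl10 (chr5:92346638-92348889, minus strand) had 2.38, 1.07, 1.52, 0.754 and 1.41 CPM in 16IC, against 3.48, 0.475, 0.359, 13.4 and 6.50 CPM in EIC. EIC 1, EIC 4 and EIC 5 stood above all 16IC tumours, and EIC 2 and EIC 3 below all of them. Its log2 difference was -1.76 (SE 0.86, interval from -3.67 to 0.16, adjusted p 0.406), on means of 1.43 ± 0.611 CPM in 16IC and 4.84 ± 5.40 CPM in EIC, and -0.93 without EIC 4. Although both answer to interferon, the ratio of Cxcl9 to Cxcl10 in CPM ran from 0.760 to 4.36 over the 16IC tumours and from 0.589 to 3.67 over the EIC tumours. Tumour 16IC 1 was at the top of Cxcl9 with 4.36 times as much Cxcl9 as Cxcl10, while EIC 4, the top of Cxcl10, had a ratio of 0.589.

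Cxcl16 (chr11:70453983-70459984, minus strand) had 28.6, 43.9, 15.9, 14.5 and 43.2 CPM in 16IC, against 56.2, 16.3, 14.0, 46.0 and 44.8 CPM in EIC. Each genotype held 2 tumours between 14.0 and 16.3 CPM and at least 2 with 43.2 CPM or more. The means were 29.2 ± 14.2 CPM in 16IC and 35.5 ± 19.1 CPM in EIC (log2 difference -0.28, SE 0.46, interval from -1.30 to 0.74, adjusted p 0.804). Cxcl11 was too low to test, at 0.137 to 1.15 CPM in 16IC and 0 to 0.843 CPM in EIC. Other-strand genes cover 5.91% of the exons of Cxcl10 (Art3), 41.7% of Cxcl11 (Gm2673) and 18.3% of Cxcl16 (Zmynd15). The sources used here do not say whether counting used strand, so these values may hold reads of the partner gene. T cell markers were low in both genotypes: the list of 8 summed to 3.29 to 8.56 CPM in 16IC and 1.07 to 19.0 CPM in EIC. Of its 2 tested genes, Cd4, the helper T cell coreceptor, had a log2 difference of -0.67 (adjusted p 0.652) and Cd8a, that of cytotoxic T cells, one of 0.68 (adjusted p 0.716). Cd3e, a defining subunit of the T cell receptor complex, was at 0 in EIC 2 and EIC 3, and Ifng, the main inducer of Cxcl9, was at 0 in 9 of the 10 tumours.

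**Figure D2:**
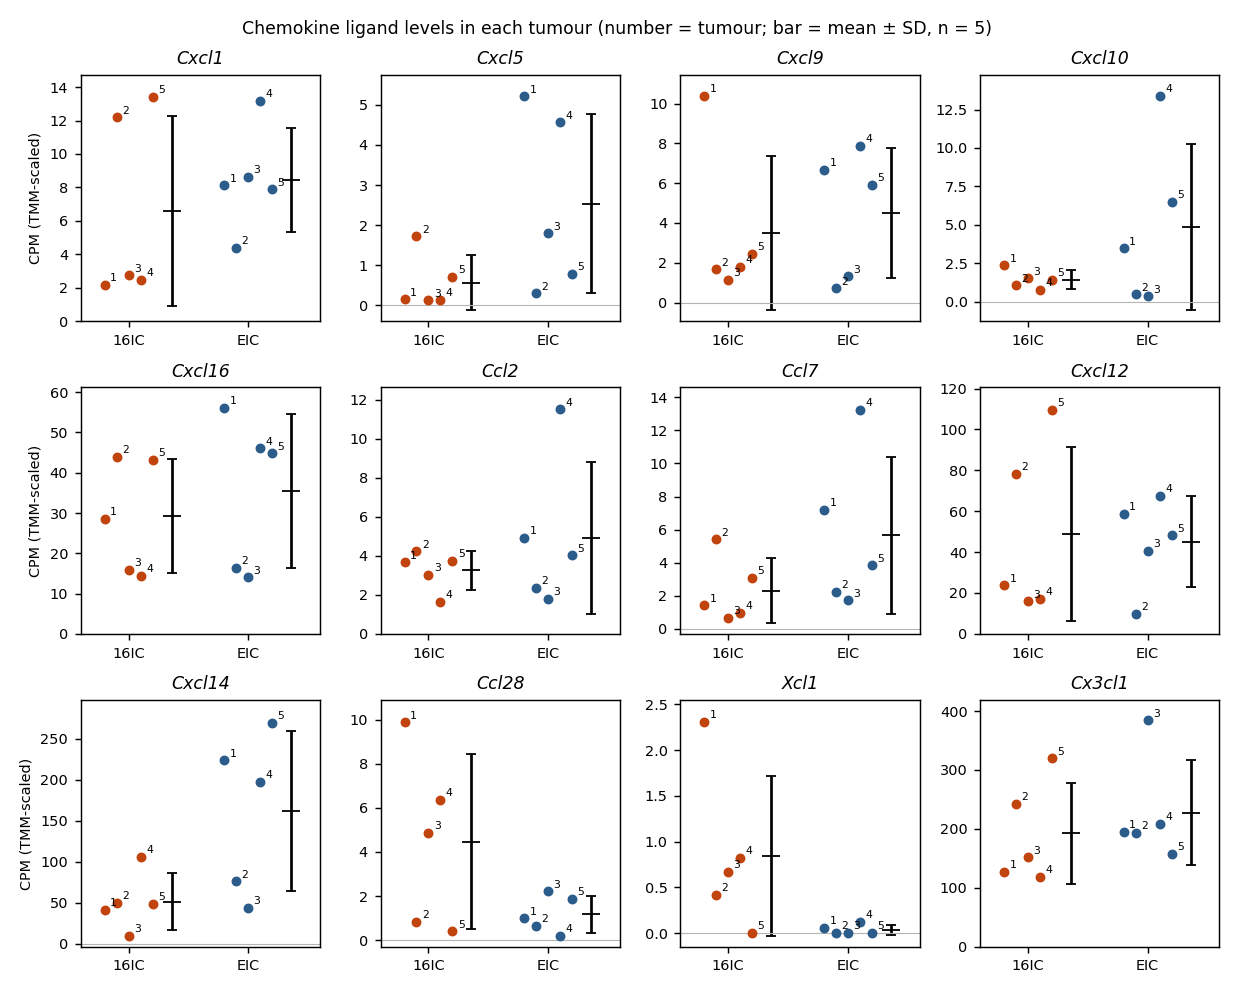
CPM (TMM-scaled) of chemokine ligands in each tumour, 16IC left and EIC right, with each point numbered by its tumour and bars for mean ± SD over 5 tumours. Vertical axes start at 0 or below it, with a line at 0. The groups overlap in every panel, and EIC 1 and EIC 4 are often at the top.

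The monocyte attractants Ccl2 and Ccl7, ligands of Ccr2 that draw monocytes out of bone marrow and into tissue, were both tested and neither passed. Ccl2 (chr11:82035571-82037453, plus strand) had 3.67, 4.22, 3.04, 1.65 and 3.75 CPM in 16IC, against 4.93, 2.38, 1.80, 11.5 and 4.04 CPM in EIC. Its log2 difference was -0.59 (SE 0.50, interval from -1.69 to 0.51, adjusted p 0.610), on means of 3.27 ± 0.999 CPM in 16IC and 4.93 ± 3.88 CPM in EIC. EIC 4 lay far above the other tumours, and without it the log2 difference was -0.02. Ccl7 (chr11:82045712-82047525, plus strand) had 1.44, 5.41, 0.669, 0.960 and 3.11 CPM in 16IC, against 7.19, 2.26, 1.74, 13.3 and 3.85 CPM in EIC. Its log2 difference was -1.28 (SE 0.70, interval from -2.84 to 0.28, adjusted p 0.449), on means of 2.32 ± 1.97 CPM in 16IC and 5.66 ± 4.75 CPM in EIC. EIC 4 was again the highest for Ccl7, with a log2 difference of -0.71 without it, and 16IC 1, 16IC 3 and 16IC 4 were the 3 lowest.

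The homeostatic chemokines, all 3 of them tested, had estimates of either sign and none passed. Cxcl14 (chr13:56288643-56296551, minus strand), an epithelial chemokine made in skin and mammary tissue, had the highest mean of all ligands per gene length (FPKM) in EIC. It had 41.7, 49.6, 9.31, 106 and 48.4 CPM in 16IC, against 224, 76.3, 43.8, 198 and 269.8 CPM in EIC. EIC 1, EIC 4 and EIC 5 stood above every 16IC tumour, and the groups overlapped through 16IC 4, EIC 2 and EIC 3. The means were 51.0 ± 34.8 CPM in 16IC and 162 ± 97.5 CPM in EIC. The log2 difference was -1.67 with an SE of 0.62 and an interval from -3.05 to -0.29, and the adjusted p was 0.322 by edgeR (unadjusted p 0.0219) and 0.109 by DESeq2. DESeq2 called it in 2 of the 10 fits that left out 1 tumour, those without 16IC 4 (adjusted p 0.0405) or EIC 3 (0.0480). Basal and keratinocyte markers summed to 6.03 to 35.3 CPM in 16IC and 6.42 to 552 CPM in EIC. Their leading gene Krt14, a keratin of basal epithelium and skin, was at 0 in 16IC 3, at 13.0 CPM at most in the other 16IC tumours and at 466 CPM in EIC 1. The log2 difference of Krt14 was -5.10 (SE 1.80, adjusted p 0.307), that of Krt5 was -2.55 (adjusted p 0.479), and the part of skin or basal cells in the level of Cxcl14 was not tested.

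The promoter of Cxcl14 is shown because it held both the ISRE letters and those of the interferon-gamma motif GAS (TTCNNNGAA, both strands). The GAS letters occurred in 8.30% of all promoters and in 2 members, Ccl17 and Cxcl14. The stretch is chr13:56296502-56296801 on GRCm38.p6, minus strand, with the GAS match beginning 191 bases and the ISRE match 172 bases before the start.
Cxcl14: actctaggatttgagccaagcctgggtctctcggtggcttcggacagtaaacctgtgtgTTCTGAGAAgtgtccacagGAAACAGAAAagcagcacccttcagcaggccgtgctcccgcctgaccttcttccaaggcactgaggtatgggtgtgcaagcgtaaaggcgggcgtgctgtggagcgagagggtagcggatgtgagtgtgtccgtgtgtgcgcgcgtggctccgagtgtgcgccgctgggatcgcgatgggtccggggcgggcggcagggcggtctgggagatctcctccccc

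Cxcl12 (chr6:117168535-117181367, plus strand), the stromal ligand of Cxcr4, had 23.7, 78.1, 15.9, 17.3 and 109.6 CPM in 16IC, against 58.7, 9.92, 40.7, 67.6 and 48.3 CPM in EIC. The 16IC tumours split widely, with 16IC 2 and 16IC 5 above every EIC tumour and the other three below all of them but EIC 2. Its log2 difference was 0.12 (SE 0.63, interval from -1.28 to 1.52, adjusted p 0.947), and it turned negative when 16IC 2, 16IC 5 or EIC 2 was left out. Ccl28 (chr13:119623819-119654359, plus strand), a mucosal chemokine of glandular epithelium that attracts antibody-secreting cells, had 9.87, 0.833, 4.87, 6.38 and 0.410 CPM in 16IC, against 0.985, 0.653, 2.22, 0.188 and 1.87 CPM in EIC. Tumours 1, 3 and 4 of 16IC were above every EIC tumour, and 16IC 2 and 16IC 5 were within the EIC range. The means were 4.47 ± 3.96 CPM in 16IC and 1.18 ± 0.844 CPM in EIC. The log2 difference was 1.91, the highest estimate of the tested members, with an SE of 0.86, an unadjusted p of 0.0503 and an adjusted p of 0.381 by edgeR and 0.193 by DESeq2.

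Within 16IC, the 3 tumours with high Ccl28 were the 3 with low Cxcl12, a pattern noticed in the values and not tested. Those 3 tumours were also the 16IC tumours with Krt19 at or under 3.53 CPM. EIC 2, the EIC tumour with low Krt19, also had low Cxcl12 (9.92 CPM), but its Ccl28 was low too (0.653 CPM).

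The other inflammatory CC chemokines, which attract monocytes, macrophages, eosinophils and T cells, had negative log2 differences in 6 of 7 tested genes. Adjusted p-values ran from 0.417 to 0.907. Ccl6, a mouse macrophage chemokine, had 9.01, 25.8, 4.44, 8.77 and 38.5 CPM in 16IC, against 57.6, 22.9, 14.0, 80.3 and 30.8 CPM in EIC. Its log2 difference was -1.25 (SE 0.64, adjusted p 0.417), and EIC 1 and EIC 4 stood above all other tumours. Ccl9, also a myeloid chemokine of the mouse, had 18.7, 21.6, 7.97, 22.8 and 30.6 CPM in 16IC, against 43.6, 20.4, 13.2, 52.6 and 32.3 CPM in EIC (log2 difference -0.67, SE 0.42, adjusted p 0.491). EIC 1, EIC 4 and EIC 5 were the 3 highest. Ccl8, which macrophages of resident type make, had 8.50, 15.9, 2.43, 6.72 and 28.1 CPM in 16IC, against 42.6, 12.5, 10.9, 29.7 and 25.1 CPM in EIC (log2 difference -0.97, SE 0.60, adjusted p 0.491). EIC 1 was the highest for Ccl8 and 16IC 3 the lowest. Ccl11, the eosinophil attractant eotaxin, had 6.92, 6.66, 0.669, 6.99 and 5.51 CPM in 16IC, against 17.8, 4.10, 1.32, 4.75 and 7.77 CPM in EIC. The log2 difference of Ccl11 was -0.42 (SE 0.70, adjusted p 0.807), and 0.25 without EIC 1, its highest tumour.

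Ccl12, a Ccr2 ligand of the mouse, Ccl3, a ligand of Ccr1, and Ccl5, a chemokine made by T and NK cells, had log2 differences of -0.56, -0.21 and 0.21. The sign for Ccl5 turned when 16IC 1, EIC 2 or EIC 3 was left out. Ccl4, Ccl24 and Ccl1 were too low to test. Ccl4, a relative of Ccl3, had 41 counts in 16IC and 46 in EIC, and Ccl24, an eosinophil attractant, had 28 in 16IC and 53 in EIC. Ccl1 had 2 counts in all, both in 16IC 1. The macrophage and monocyte markers, 9 of 9 tested, had 8 negative log2 differences with a median of -0.27, and none passed edgeR or DESeq2. Among them were Adgre1, which encodes the macrophage antigen F4/80, at -0.40 (adjusted p 0.514), and Ly6c2, a marker of inflammatory monocytes, at -1.50 (adjusted p 0.530). The list summed to 271 to 1143 CPM in 16IC and 399 to 1214 CPM in EIC, and the part of macrophage number in these ligands was not tested.

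Xcl1 was the 1 ligand that any of the tools called. Xcl1 (ENSMUSG00000026573, chr1:164931644-164935527, minus strand) encodes lymphotactin, a chemokine of NK and CD8 T cells that attracts Xcr1-bearing dendritic cells. Its counts were 32, 7, 11, 12 and 0 in 16IC, against 1, 0, 0, 2 and 0 in EIC. In CPM these were 2.31, 0.416, 0.669, 0.823 and 0 in 16IC, against 0.0580, 0, 0, 0.125 and 0 in EIC. Tumours 1 to 4 of 16IC were above every EIC tumour, and 16IC 5 had no count. Summed, 62 counts in 16IC stood against 3 in EIC, a depth-scaled ratio of 21.2 with an exact 95% interval from 6.92 to 106 that covers counting error alone.

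DESeq2 gave a log2 difference of 4.54 for Xcl1 with an adjusted p of 0.0426, the same as in the authors' deposited table. The call held in 4 of the 10 fits that left out 1 tumour. It was lost without 16IC 1 (adjusted p 0.236), 16IC 3 (0.103), 16IC 4 (0.136), EIC 1 (0.103), EIC 3 (0.0877) or EIC 5 (0.0905). Xcl1 was below edgeR's filter, and with no filter edgeR gave 4.29 with an adjusted p of 0.362. An exact permutation test of its log2 CPM, two-sided over 252 arrangements with a smallest possible p of 0.00794, gave p = 0.0476, unadjusted. An other-strand gene, Gm20743, covers 18.7% of its exons and had 0 to 3 counts in 16IC and 0 to 5 counts in EIC.

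NK cell markers were set beside Xcl1, and their sums followed its order within 16IC but not in every EIC tumour. The 6 markers summed to 10.5, 1.25, 1.82, 4.18 and 1.11 CPM in 16IC, against 4.93, 0.0594, 0.719, 0.375 and 1.81 CPM in EIC. Within 16IC the sum and Xcl1 ranked the tumours alike, from 16IC 1 through 16IC 4, 16IC 3 and 16IC 2 to 16IC 5. Tumour 16IC 1 was also the highest of both genotypes in the sum and in Xcl1. EIC 1, with 1 count of Xcl1, had a higher sum than 16IC 2, 16IC 3, 16IC 4 and 16IC 5. EIC 5, with 0 counts of Xcl1, had a higher sum than 16IC 2, with 7. Nkg7, a granule protein of NK and cytotoxic T cells and the 1 marker tested, had a log2 difference of 0.83 (SE 0.82, adjusted p 0.664). Ncr1, the receptor NKp46 that defines NK cells, had 2.09, 0.476, 0.547, 0.960 and 0.117 CPM in 16IC, against 0.464, 0, 0, 0.125 and 0.301 CPM in EIC, too low to test. Its order within 16IC was also that of Xcl1. Xcr1, the receptor of Xcl1, was also too low, at 0.304 to 1.37 CPM in 16IC and 0 to 0.811 CPM in EIC. The part of NK cell number in the Xcl1 values was not tested.

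Of the other lymphoid, mucosal and dendritic cell chemokines, Cx3cl1, the membrane-anchored ligand fractalkine, had the most counts. It had 127, 243, 152, 119 and 319.5 CPM in 16IC, against 195, 193, 384, 208 and 158 CPM in EIC. The groups overlapped over most of their range (log2 difference -0.24, SE 0.33, adjusted p 0.761), and the sign turned without EIC 3, the highest tumour. Ccl27a, an epithelial chemokine that draws T cells to skin, had 5.33, 8.98, 4.50, 8.02 and 10.8 CPM in 16IC, against 8.34, 4.75, 5.33, 7.13 and 10.4 CPM in EIC. Its log2 difference was 0.07 (SE 0.31, adjusted p 0.938), with an interval from -0.63 to 0.76, and it turned negative without 16IC 2, 16IC 5, EIC 2 or EIC 3. Ccl27a has near-identical copies in the mouse genome, so its counts are uncertain. Ccl25, which attracts gut-homing T cells, had a log2 difference of -0.35 (adjusted p 0.756).

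The remaining members of this group were too low to test. Ccl21a, a lymph node chemokine with near-identical copies and therefore uncertain, had 4 counts in 16IC and 68 in EIC, most of them in EIC 1. Cxcl13, the B cell attractant, had 29 counts in 16IC and 114 in EIC, and Ccl20, a ligand of Ccr6, had 11 in 16IC and 39 in EIC. Ccl17 had 23 counts in 16IC and 60 in EIC, and Ccl22, which shares with it the receptor Ccr4, had 39 in each. Dendritic cell markers summed to 11.7 to 30.3 CPM in 16IC and 8.20 to 41.3 CPM in EIC. The dendritic cell integrin Itgax had a log2 difference of -0.46 (adjusted p 0.652) and the factor Zbtb46 one of -0.14 (adjusted p 0.898).

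Pf4, a platelet granule chemokine that some macrophages also make, had a log2 difference of -0.68 (SE 0.44, adjusted p 0.510). Ppbp, the other platelet chemokine of the list, was too low for edgeR's filter. It had 0.144, 0.357, 0.122, 0.0686 and 0.235 CPM in 16IC, against 0.522, 0.950, 0.240, 1.38 and 0.301 CPM in EIC. Only 16IC 2 reached into the EIC range. The exact permutation p of Ppbp was 0.0317, and Ppbp and Xcl1 were the 2 of 15 untested members with an unadjusted p under 0.05. The share over all genes was not computed for this test, so the count is not a result about these members. By edgeR, a different test, 13.1% of all genes tested had an unadjusted p under 0.05. DESeq2 gave Ppbp an adjusted p of 0.164. Cxcl15 had 3 counts in 16IC and 27 in EIC, and Cxcl17, a mucosal chemokine, had 26 in 16IC and 143 in EIC, most of these in EIC 1. Of the 3 platelet markers in the table, only the integrin Itga2b was tested (log2 difference -0.59, adjusted p 0.491), and the list summed to 2.16 to 6.02 CPM in 16IC and 3.71 to 8.38 CPM in EIC.

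Per gene length, on the authors' FPKM scale, 4 ligands had the highest means over all 10 tumours. Cxcl14 averaged 27.1 ± 18.4 FPKM in 16IC and 86.6 ± 52.3 FPKM in EIC. Cx3cl1 averaged 47.4 ± 21.6 FPKM in 16IC and 56.2 ± 22.0 FPKM in EIC. Ccl8 followed with 23.5 ± 19.3 FPKM in 16IC and 46.2 ± 25.5 FPKM in EIC, and Ccl6 with 9.37 ± 7.85 FPKM in 16IC and 22.3 ± 14.8 FPKM in EIC. Cxcl16, with 9.37 ± 4.58 FPKM in 16IC and 11.5 ± 6.24 FPKM in EIC, was level with Ccl6 in 16IC. In 16IC the mean FPKM of Cxcl14 and Ccl8, and in EIC those of Cx3cl1 and Ccl8, differed by less than either SD. Within the summed CPM of all members, Cx3cl1 took 35.7% to 63.2% in 16IC and 23.1% to 68.3% in EIC, and Cxcl14 took 3.86% to 31.6% in 16IC and 7.79% to 39.6% in EIC.

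Ligands of a tumour tended to be high or low together. Each tumour's median deviation from the mean of the 21 tested ligands was -0.39, 0.30, -1.14, -0.72 and 0.21 on the log2 scale in 16IC, against 0.91, -0.48, -0.64, 1.08 and 0.48 in EIC. Tumours EIC 1, EIC 4 and EIC 5 were high across the list, while EIC 2 and EIC 3 lay among the low 16IC tumours 1, 3 and 4. EIC 1 and EIC 4 each had 19 of 21 ligands above the ligand's own mean, and EIC 5 had 18. In 16IC the counts were 9, 13, 3, 4 and 13 of 21. EIC 4 held the highest level of 7 ligands, and 16IC 3 the lowest of 8. In all, 7 ligands had their highest level in a 16IC tumour and 14 in an EIC tumour.

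**Figure D3:**
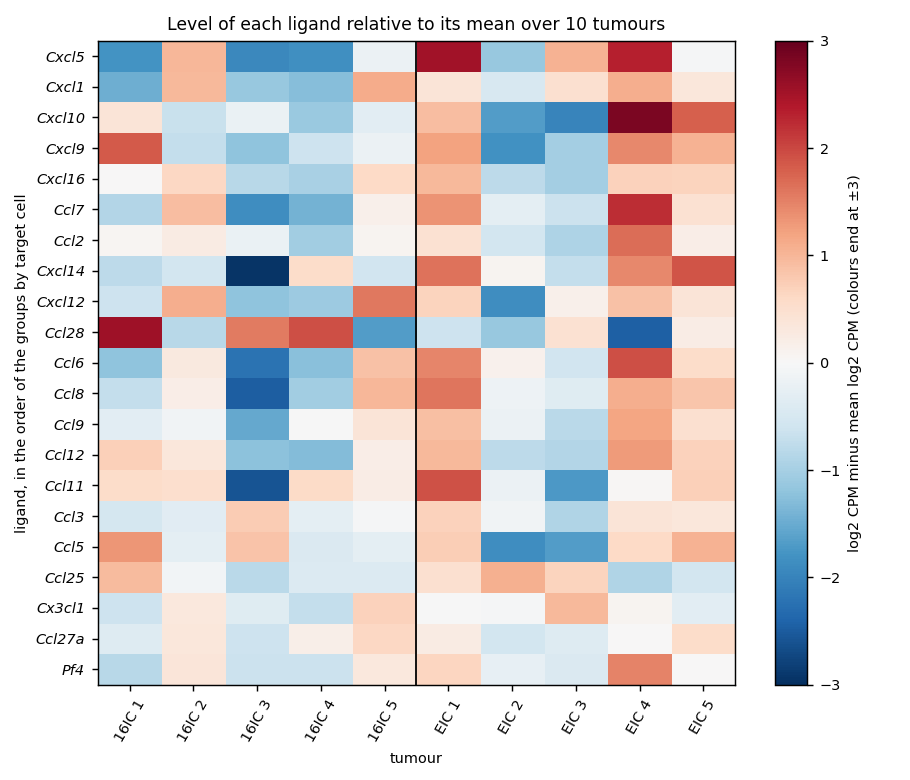
Log2 CPM of each tested chemokine ligand minus its mean over the 10 tumours, with ligands down the page by target-cell group and tumours across it, 16IC left of EIC; colours end at ±3. The columns of EIC 1 and EIC 4 are mostly above the mean (19 of 21 ligands each), and that of 16IC 3 mostly below (3 of 21 above).

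Genes that neighbour each other on a chromosome are listed by cluster. With gaps under 500000 bases, 24 members fell into 5 clusters. The cluster of Ccl2, Ccl7, Ccl11, Ccl12, Ccl8 and Ccl1 (chr11:82035571-82305690) had negative log2 differences in 5 of 5 tested genes, from -1.28 to -0.42. The cluster of Ccl5, Ccl9, Ccl6, Ccl3 and Ccl4 (chr11:83525778-83664683) had them in 3 of 4. On chromosome 5, 3 of 3 tested genes of the Cxcl5 to Cxcl2 cluster (chr5:90759360-90905938) and 2 of 2 of the cluster of Cxcl9, Cxcl10 and Cxcl11 (chr5:92321347-92365485) were negative. The cluster of Ccl22, Cx3cl1 and Ccl17 (chr8:94745590-94812036) had 1 tested gene, Cx3cl1, at -0.24. These counts stand beside 17 of 21 negative over all tested members and 52.3% over all genes tested. No gene of a cluster passed edgeR.

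Among the other genes of the pathway, Cxcr2 was the 1 chemokine receptor that DESeq2 called. Of 18 receptors, 6 were tested, 2 with positive and 4 with negative log2 differences, and none passed edgeR. Atypical receptors bind chemokines without signalling through G proteins, and 3 of 4 tested were negative. Ackr2, a scavenger of inflammatory CC chemokines, averaged 1.75 ± 0.501 CPM in 16IC and 2.56 ± 0.160 CPM in EIC (log2 difference -0.55, adjusted p 0.416), and Ackr1, which carries chemokines across vessels, had a log2 difference of -1.47 (adjusted p 0.493). Ackr1 shares 25.7% of its exons with Cadm3 on the same strand, so its counts are uncertain. Of the inducing cytokines and regulators, 11 were tested, 4 with positive and 7 with negative log2 differences, and none passed either tool. The NF-kB cofactor Nfkbiz, which helps induce Cxcl5 and Cxcl1, averaged 19.0 ± 3.03 CPM in 16IC and 27.8 ± 8.68 CPM in EIC (log2 difference -0.54, SE 0.24, adjusted p 0.369). Il1b, an upstream cytokine of the neutrophil attractants, had a log2 difference of -1.23 (SE 0.59, adjusted p 0.397). Il17a was not analysed here.

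All 5 tested proteases that cut or shed chemokines had negative log2 differences. DESeq2 called Mmp9, a neutrophil and macrophage gelatinase, as lower in 16IC: it averaged 1.76 ± 1.10 CPM in 16IC and 8.55 ± 7.79 CPM in EIC (log2 difference -2.28, adjusted p 0.0301, against 0.288 by edgeR). That call too was lost without 16IC 1, 16IC 3, 16IC 4, EIC 1 or EIC 4, with adjusted p-values from 0.0842 to 0.213 and log2 differences from -2.23 to -1.59. The groups did not overlap in 2.58% of all genes tested, among them 1 of these proteases and 1 of the milk genes. The protease, Adam17, a sheddase that frees Cx3cl1 and Cxcl16 from the membrane, was singled out for this after its values were seen. It had 77.8, 97.8, 114, 76.0 and 96.3 CPM in 16IC, against 121, 119, 135, 130.4 and 127 CPM in EIC (log2 difference -0.45, SE 0.13, adjusted p 0.286). The stromal and vessel lists gave no call by edgeR or DESeq2. Pdgfrb, a fibroblast and pericyte receptor, had a log2 difference of -0.79 (adjusted p 0.372) and the collagen gene Col1a2 one of -0.76 (adjusted p 0.539). Fibroblast markers summed to 279.9 to 2285 CPM in 16IC and 1135 to 4358 CPM in EIC. The vessel genes Emcn and Pecam1 had log2 differences of -0.61 (adjusted p 0.444) and -0.20 (adjusted p 0.748), with list sums of 64.5 to 181 CPM in 16IC and 106 to 188 CPM in EIC. Epithelial genes were also uncalled, with Epcam at 0.33 (adjusted p 0.416) and Cdh1 at -0.42 (adjusted p 0.456). The milk genes Csn3 and Wap had log2 differences of 1.06 (adjusted p 0.292) and -2.82 (adjusted p 0.394), and the milk list summed to 15458 to 44924 CPM in 16IC and 4149 to 32895 CPM in EIC.

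Across the 10 tumours, most ligands varied with the receptor, inducer or source-cell marker paired with them. Of 20 pairs listed, 16 had both genes tested, and log2 CPM were compared by Pearson's r and Spearman's rho with permutation p-values (100000 draws), each adjusted over the 16. By rho 12 pairs passed, by r 12, and by both 11. Of those 11, 7 still had an exact permutation p of r under 0.05, unadjusted, over the 8 tumours left without the 2 farthest from the median of the partner. With that p adjusted over the 16 pairs, Ccl2 with Ccr2, Cxcl1 with Cxcr2 and Ccl6 with Adgre1 no longer passed. All 16 kept a positive r after the mean of each genotype was subtracted. Both genes of a pair come from the same library, so the share of all tested genes with at least as high a rho to the ligand is given beside each pair.

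Ccl2 and its receptor gene Ccr2 had a rho of 0.90 (adjusted permutation p 0.00555) and an r of 0.70 (adjusted p 0.0350), with 0.349% of genes at least as high. That r was 0.76 without 2 tumours (exact permutation p 0.0278, adjusted 0.0890). Ccl7 and Ccr2 had a rho of 0.87 (adjusted permutation p 0.00723) and an r of 0.82 (adjusted p 0.00928), with 2.92% of genes at least as high. Without 16IC 3 and 16IC 4, the lowest in Ccr2, that r was 0.66 (exact permutation p 0.0739) and the rho 0.76 (exact permutation p 0.0368). Cxcl5 and Cxcr2 had a rho of 0.85 (adjusted permutation p 0.00811) and an r of 0.88 (adjusted p 0.00480), with 2.61% of genes at least as high. Without EIC 1 and EIC 4 that r was 0.69 (exact permutation p 0.0651) and the rho 0.74 (exact permutation p 0.0458). Cxcl1 and Cxcr2 had a rho of 0.77 (adjusted permutation p 0.0190) and an r of 0.71 (adjusted p 0.0350), with 4.30% of genes at least as high. That r was 0.76 without 2 tumours (exact permutation p 0.0421, adjusted 0.0971). The adjusted permutation p of the rho of Cxcl1 with Cxcr2 was above 0.05 without 16IC 3 (0.0596) or EIC 4 (0.0528).

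Ccl8 and Mrc1, the mannose receptor of resident macrophages, had an r of 0.94 (permutation p 1e-05, the smallest these draws can give, adjusted 0.000160) and a rho of 0.89 (adjusted p 0.00555). The r was 0.86 without 2 tumours (exact permutation p 0.00685, adjusted 0.0274), and 2.31% of genes had at least as high a rho. Ccl6 and the macrophage gene Adgre1 had a rho of 0.90 (adjusted permutation p 0.00555) and an r of 0.85 (adjusted p 0.00880), with 1.71% of genes at least as high. That r was 0.72 without 2 tumours (exact permutation p 0.0425, adjusted 0.0971). Cxcl12 and Pdgfra, a fibroblast receptor, had a rho of 0.82 (adjusted permutation p 0.0115) and an r of 0.79 (adjusted p 0.0136), with 3.14% of genes at least as high. That r was 0.88 without 2 tumours (exact permutation p 0.00496, adjusted 0.0274). Pdgfra did not separate the genotypes (log2 difference -0.83, SE 0.58, adjusted p 0.544).

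For Ccl9 and Pf4 with Adgre1 and for Cxcl14 with Krt14, r was between 0.52 and 0.53 without the 2 farthest tumours. Ccl9 had a rho of 0.77 (adjusted permutation p 0.0190) and an r of 0.76 (adjusted p 0.0200), which was 0.52 (exact permutation p 0.187) without 16IC 3 and EIC 1, with 2.94% of genes at least as high. Without 16IC 3 alone the adjusted permutation p of its rho was 0.0667. Pf4 had a rho of 0.81 (adjusted permutation p 0.0134), but its r of 0.64 had an adjusted p of 0.0583, and it was 0.53 (exact permutation p 0.173) without those tumours, with 4.91% of genes at least as high. The rho of Pf4 was 0.74 (exact permutation p 0.0458) without those tumours, and it passed in every fit without 1 tumour (0.75 to 0.87). Cxcl14 and Krt14 had a rho of 0.71 (adjusted permutation p 0.0372) and an r of 0.73 (adjusted p 0.0289), which was 0.53 (exact permutation p 0.173) without 16IC 3 and EIC 1, with 2.31% of genes at least as high. The adjusted permutation p of its rho was above 0.05 in 5 of the fits without 1 tumour: 16IC 1 (0.0681), 16IC 3 (0.112), EIC 1 (0.102), EIC 4 (0.0937) and EIC 5 (0.0882).

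The other pairs did not pass by rho, and 3.59% to 29.7% of genes had at least as high a rho to the ligand. Ccl5 with Nkg7 had a rho of 0.62 (adjusted permutation p 0.0758) and an r of 0.69 (adjusted p 0.0379), which was 0.40 (exact permutation p 0.325) without 16IC 1 and EIC 2, and its rho was 0.80 (adjusted permutation p 0.0220) without 16IC 4. Ccl28 with Epcam had a rho of 0.28 (adjusted permutation p 0.427) and an r of 0.39 (adjusted p 0.304). Cx3cl1 with its receptor gene Cx3cr1 had a rho of 0.43 (adjusted permutation p 0.233) and an r of 0.37 (adjusted p 0.306), which was -0.06 without 16IC 3 and 16IC 4.

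**Figure D4:**
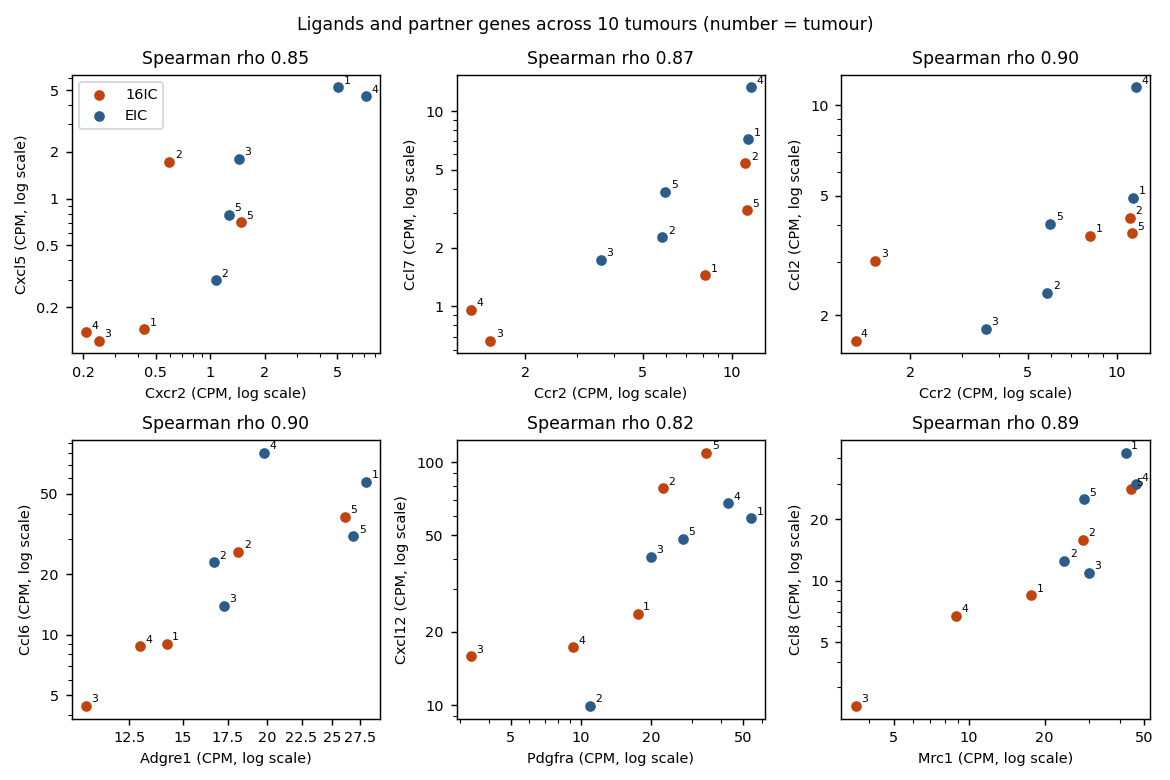
CPM of ligands against CPM of their partner genes in the 10 tumours, both axes logarithmic, points numbered by tumour, red for 16IC and blue for EIC. Tumours of both genotypes lie along the same rising line for Ccl6 with Adgre1 (rho 0.90) and Ccl8 with Mrc1 (rho 0.89).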

How the data were processed

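RNA was measured in mammary tumours of 10 mice, 5 per genotype. The genome was GRCm38 (mm10) and the tools included HTSeq, STAR, Trimmomatic, limma and edgeR, per the submitters' processing notes. Their versions, the annotation, the strand setting and the handling of multi-mapped reads were not given in the sources. The deposited table gives raw counts per gene, used for every test and for CPM. The authors' normalized signal, also deposited, equals these counts over 1 factor per library. The authors' FPKM served for levels between genes. The authors also deposited a log2 fold change of 16IC over EIC and a p-value for each gene, and DESeq2 made the same 356 calls from the counts at an adjusted p under 0.05. No per-sample column was left unused.

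After TMM scaling, counts were tested in edgeR 4.0.16 under R 4.3.3 (quasi-likelihood, robust, filterByExpr with minimum count 10, genotype as the only term), over 14915 genes with Benjamini-Hochberg adjustment. DESeq2 1.42.0, limma 3.58.1 (voom with quality weights), other scalings and filters, and each tumour left out were the alternatives. Log2 CPM used a prior count of 2, and permutation tests used SciPy 1.17.1. Of the fits, only that of edgeR was tested on simulated data, and its outcome is not reported here. The median biological coefficient of variation was 33.6% over all genes tested, and counting error adds to it for members with few counts. Some ligands with many counts varied more, such as Cxcl12 in 16IC, at 48.9 ± 42.6 CPM. Intervals on counts cover counting error only. By its label each tumour is from another animal, and p-values measure the spread between them. The labels give no batch.

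Positions and symbols are those of the table, overlaps are from GENCODE mouse release M21, and promoters from RefSeq, with 27 of 37 members matched. The members and lists were chosen with earlier results of these data known. Values in every tumour are given for the tested members of the 4 main groups, members called by any tool and the 6 other members with the highest mean CPM. Of the other lists, genes called by DESeq2 or edgeR are named, or else the 2 with the smallest edgeR p, and the paired genes. Further genes are named outside this rule, among them Ncr1, Xcr1, Cd3e, Ifng, Mmp8, Retnlg and Krt19. Their choice followed no stated rule, so their values are descriptive only. Some pairs enter the counts and the adjustment over pairs but are not reported here. Ppbp, Adam17 and the leave-one-out sentences, were added after their values were seen.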

Additional observations from a re-analysis of the deposited data

Results flagged for a closer look

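In 42 groups of 5 tumours (21 tested ligands in both genotypes), a tumour standing apart from the others was looked for in log2 CPM. Dixon's critical value was used, which chance passes in about 1 in 20 groups, and 2 were found. Their levels are given in CPM, a scale on which the gaps were not judged. Cxcl12 stood at 9.92 CPM in EIC 2, against 40.7 to 67.6 CPM in the other EIC tumours. Ccl11 stood at 0.669 CPM in 16IC 3, against 5.51 to 6.99 CPM in the other 16IC tumours.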

How the results depend on the processing

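The count of members called was 0 with every scaling and filter tried, with voom and without any 1 tumour (0 to 0), and 1 with DESeq2. Over all genes, the main edgeR fit and voom each called 0 as well. Leaving out 1 tumour at a time, 16 to 20 members had negative log2 differences, their median ran from -0.69 to -0.28, and 9 to 13 pairs passed. The median was also -0.68 without 16IC 2 and -0.82 with voom, which put 20 members below 0. Without 1 tumour the log2 difference ran up to 0.35 for Cxcl12, 0.54 for Ccl5 and 0.24 for Ccl27a, and down to -0.51 for Cx3cl1. Cxcl12 turned to -0.39 with voom, -0.11 without 16IC 2, -0.42 without 16IC 5 and -0.13 without EIC 2. Ccl5 turned to -0.0805 with voom, -0.16 without 16IC 1, and -0.05 without EIC 2 or EIC 3 (-0.0513 and -0.0487). Ccl27a turned to -0.0390 with voom, -0.00382 without 16IC 2, -0.10 without 16IC 5, -0.0440 without EIC 2 and -0.0298 without EIC 3. Ccl11 turned to 0.25 without EIC 1, and Cx3cl1 to 0.0207 without EIC 3. The cause was not tested. Other values for single genes kept their direction, 344 of them on the same side of the threshold. The 7 others, all for Xcl1, did not reach it, among them that of edgeR with no filter. No paired analysis was possible because the labels carry only animal names, and the tumour numbers follow sample order. With 5 tumours per group the intervals were wide, and a missing call does not show equal levels. Cxcl5 and Cxcl14 had intervals below 0 and were still not called after adjustment.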
